A study of Mus musculus with 8 samples.

Results

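The genes described here are the mouse zinc finger genes whose symbol is Zfp followed by a number only and which lie on chromosomes 7, 13 or 17. They were found in a deposited table of H3K4me3 peaks by the gene symbol and the chromosome of each peak. This gave 172 of 35486 listed peaks and 140 of 20871 genes, with 75 genes on chromosome 7, 30 on chromosome 13 and 35 on chromosome 17. A further 170 Zfp genes with 251 peaks lie on other chromosomes. Symbols that end in a letter, such as Zfp607a, were not counted as members even where they sit inside a group of members.

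Most proteins of this kind carry an array of C2H2 zinc fingers, each of which folds around a zinc ion and reads a few bases of DNA. In many of them a KRAB domain at the other end recruits TRIM28, which brings the histone methyltransferase SETDB1 and HP1 proteins, so that the bound DNA, often a transposable element, is silenced. Many genes for KRAB zinc finger proteins arose by repeated local duplication and stand in rows. Some other Zfp genes, such as Zfp36 and Zfp143, stand alone and have other functions. The grouping used below rests only on the distance between start sites, and which members have a KRAB domain was not examined. H3K4me3, trimethylation of lysine 4 of histone H3, marks the start sites of active or poised genes.

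H3K4me3 was measured by an assay that the authors name CUT&Tag. Their methods describe an antibody against the mark and a nuclease bound to it that frees the nearby DNA for sequencing. The cells were CD45-CD31-EpCAM+ tumor cells sorted from lung tumors, with 2 libraries of KL mice (Lkb1fl/fl, replicates 1 and 2) and 2 libraries of KLG4m/m mice (Lkb1fl/fl and Gpx4m/m, replicates 3 and 4). Both groups received Ad-Cre through the nose, which removes Lkb1, as well as tamoxifen, and the cells were taken at 10 weeks after Ad-Cre. In the Gpx4m/m allele, Cre lets the cell make a Dre recombinase that needs tamoxifen to delete part of Gpx4, so that the groups differ in the loss of this ferroptosis-suppressing enzyme. Ad-Cre is not restricted to 1 cell type. The labels give no age, and the protocol speaks of 3 mice, whereas the table holds 2 libraries per group.

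The libraries held 3244495 to 3463731 reads in the listed peaks. Levels below are CPM, reads scaled to 1000000 reads in peaks with TMM factors, and since the peaks are 400 bp long (with 1 exception), CPM of different peaks compare levels per length. The Gpx4 promoter peak, which lies outside the deleted exons and therefore does not check the deletion, had 69.6 and 68.0 CPM in KL and 88.2 and 93.2 CPM in KLG4m/m. Epithelial markers had peaks for 8 of 9 genes (Sftpc had none), and their summed level was 383 to 385 CPM in KL and 290.3 to 315 CPM in KLG4m/m. B cell markers, with peaks for 5 of 6 genes (Cd79a had none), summed to 54.2 to 55.8 CPM in KL and 85.0 to 94.4 CPM in KLG4m/m, and the 7 T cell markers to 199.9 to 217 CPM and 239.8 to 248 CPM. Macrophage markers (6 of 7 genes with a peak) summed to 174 to 181 CPM in KL and 176 to 179 CPM in KLG4m/m, endothelial markers (5 of 5) to 181 to 209 CPM and 184 to 201 CPM, and fibroblast markers (3 of 5) to 64.4 to 71.7 CPM and 69.3 to 73.1 CPM. Flat sums can hold opposite changes: with reads summed per gene, 1 macrophage gene rose (Adgre1, log2 fold change 0.46 ± 0.15 (SE), edgeR adjusted p = 0.0234) and 1 fell (Lyz2, log2 fold change -0.61 ± 0.13 (SE), edgeR adjusted p = 0.000157). The part of these marker shifts in the Zfp results was not tested. In such bulk samples, fewer cells with a mark and less mark per cell cannot be told apart.

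The promoters are shown first, because some rows of genes, but not others, share letters there. RefSeq promoter windows of the GRCm38.p6 build, 300 bases long with 250 before the start site and 50 after it, were matched by symbol for 121 of the 140 genes (140 windows). The 8 letters ACTACATT, read on either strand, stood in 29 of the 140 windows (20.7%) and in 382 of all 32851 mouse windows (1.16%). They were picked after the members' windows had been compared with the rest, so these shares describe the choice and test nothing. Since most member windows (98 of 140) are of clustered genes, the split by arrangement also describes the choice. The letters were found in 28 of 91 clustered genes with a window (30.8%), in 1 of 8 genes in pairs and in 0 of 22 isolated genes. Among windows of Zfp genes on other chromosomes, 9 of 230 held them (3.91%). They resemble, but do not equal, the start of the long element bound by ZNF143, whose mouse gene Zfp143 is itself a member. The opening letters of that element, ACTACAATT, were in 6 of the 140 member windows (4.29%) and in 0.393% of all windows. Binding by ZNF143 was not tested. In 24 of the 30 copies of ACTACATT the letters TCCCA followed. The stretches below show the letters and the bases around them in genes of 4 clusters, where the copies of Zfp954 and Zfp772 are among those without TCCCA, each read in the direction of ACTACATT, with these 8 letters in capitals, from GRCm38.p6.
Zfp84, chr7:29768513-29768550, minus strand: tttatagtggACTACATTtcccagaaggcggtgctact
Zfp790, chr7:29815952-29815989, minus strand: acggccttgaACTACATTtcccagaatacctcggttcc
Zfp383, chr7:29908466-29908503, plus strand: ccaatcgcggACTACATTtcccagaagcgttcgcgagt
Zfp566, chr7:30090559-30090596, minus strand: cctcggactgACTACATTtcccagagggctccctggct
Zfp260, chr7:30095031-30095068, minus strand: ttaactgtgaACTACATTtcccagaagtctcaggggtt
Zfp708, chr13:67081576-67081613, plus strand: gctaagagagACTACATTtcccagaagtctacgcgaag
Zfp458, chr13:67269151-67269188, plus strand: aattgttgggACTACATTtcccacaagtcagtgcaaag
Zfp595, chr13:67332590-67332627, plus strand: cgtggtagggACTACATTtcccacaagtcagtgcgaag
Zfp273, chr13:67813733-67813770, minus strand: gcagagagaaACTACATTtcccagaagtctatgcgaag
Zfp954, chr7:7121544-7121581, minus strand: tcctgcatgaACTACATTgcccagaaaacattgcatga
Zfp772, chr7:7210039-7210076, minus strand: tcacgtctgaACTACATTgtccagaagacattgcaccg
Zfp111, chr7:24208192-24208229, plus strand: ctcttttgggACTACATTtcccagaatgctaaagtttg
Zfp108, chr7:24254654-24254691, minus strand: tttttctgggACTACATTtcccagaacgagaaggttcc

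The copies began 12 to 231 bases before the start site (median 62.5), and 21 of the 30 were on the strand opposite to the gene. The row Zfp84 to Zfp382 on chromosome 7 held the letters in 9 of its 13 genes with a window, and Zfp712 to Zfp273 on chromosome 13 in 9 of 15. Zfp954 to Zfp772 held them in 4 of 4 genes, Zfp180 to Zfp428 in 3 of 9, Zfp60 to Zfp850 in 2 of 5 and Zfp787 to Zfp78 in 1 of 5. The row Zfp677 to Zfp946 on chromosome 17, with 15 genes that had a window, held none. None were found either in Zfp628 to Zfp580, Zfp329 to Zfp446, Zfp715 to Zfp819 and Zfp771 to Zfp629 on chromosome 7. The same holds for Zfp935 to Zfp1008 on chromosome 13 and for Zfp799 to Zfp563 and Zfp81 to Zfp414 on chromosome 17. A longer form of 9 letters, ACTACATTT, was in 25 member windows (17.9%) and in 245 of all windows (0.746%).

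**Figure D1:**
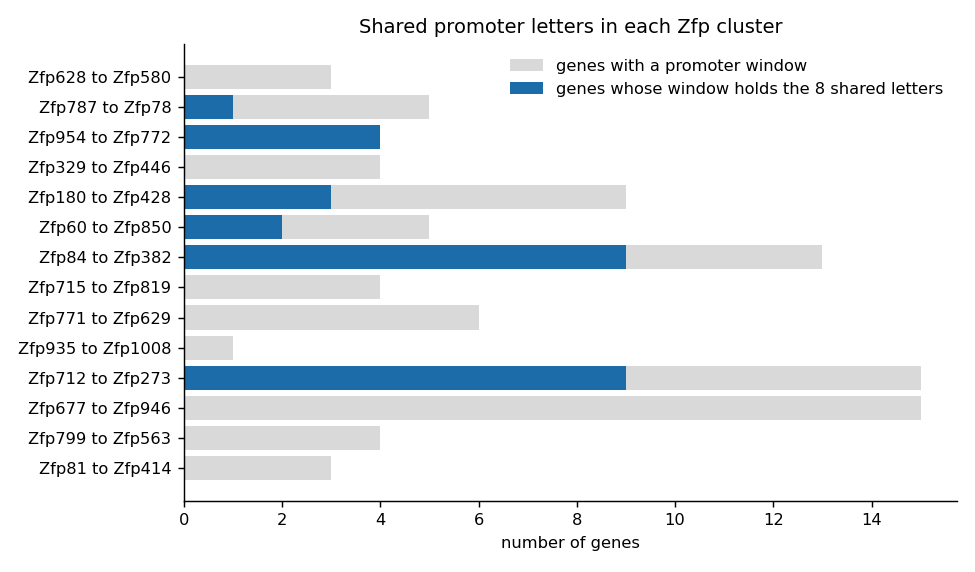
Number of genes in each Zfp cluster (horizontal axis) that have a RefSeq promoter window (grey bars) and whose window holds the 8 shared letters (blue bars). The letters are in 9 of 13 genes of Zfp84 to Zfp382 and 9 of 15 of Zfp712 to Zfp273, and in 0 of 15 of Zfp677 to Zfp946. Several shorter rows also have none.

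Other promoter letters differed less between the groups of genes. The GC box, GGGCGG on either strand, was in 13 of 22 isolated genes (59.1%), in 32 of 91 clustered genes (35.2%) and in 35.7% of all windows. The letters CCGGAAG of ETS factors were in 20.7% of member windows and 8.86% of all windows, and in 20.9% of clustered and 22.7% of isolated genes. CCAAT was in 46.4% of member windows and 37.4% of all windows, and TATAAA in 7.86% and 13.6%. The count of CpG steps in a window had a median of 10 in clustered and 18 in isolated genes, with 7 over all windows. A match is a description of letters and not of a factor's binding, and these windows could be tied to the peaks by symbol only, since the table uses other coordinates.

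Of the 140 genes, 103 stood in 14 clusters, taken as rows of at least 3 members whose neighbouring start sites are at most 250 kb apart. Another 8 genes formed 4 pairs, and 29 genes had no other member within this distance. The gap between neighbouring start sites within clusters had a median of 35.5 kb and ranged from 2.18 to 249 kb. Promoter peaks, here the peak nearest to the start site and within 1 kb of it, were listed for 137 genes, with Zfp541, Zfp592 and Zfp945 as the exceptions, which are isolated genes. The members had little H3K4me3 elsewhere: 82.6% of their peaks lay within 1 kb of a start site, against 48.1% of all peaks. A single peak was listed for 82.1% of member genes and for 63.5% of all genes. Peaks farther away made up 15 of 120 peaks of clustered genes (12.5%) and 14 of 42 of isolated genes (33.3%). The largest number was 6 peaks, at Zfp710.

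With 1 promoter peak per gene, the median level of clustered genes was above that of isolated genes in each of the 4 libraries. Other peaks of a gene do not count towards this level, and 84.5% of clustered but 72.4% of isolated genes had a single peak. The median level over 103 clustered promoters was 68.8 and 70.0 CPM in KL and 70.5 and 73.7 CPM in KLG4m/m. Over 26 isolated promoters it was 56.7 and 55.0 CPM in KL and 52.2 and 57.6 CPM in KLG4m/m, so that the clustered median was 1.21 to 1.35 times the isolated one. This difference between genes was not tested, because genes that share a duplicated ancestor are not independent. Over all 15391 genes with a promoter peak the median was 44.1 CPM, and over 160 Zfp promoters on other chromosomes it was 57.5 CPM. Weak promoters were few: 6 of the 137 members were under 20 CPM (4.38%), against 28.6% of all promoters. Across 118 member genes, the CpG count of the window and the log2 level had Pearson's r = -0.04 and Spearman's rho = -0.01, given as a description since the genes share ancestors and libraries. Reads that map to more than 1 place were removed by the authors through a mapping quality filter, which can lower the counts of near-identical neighbours.

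**Figure D2:**
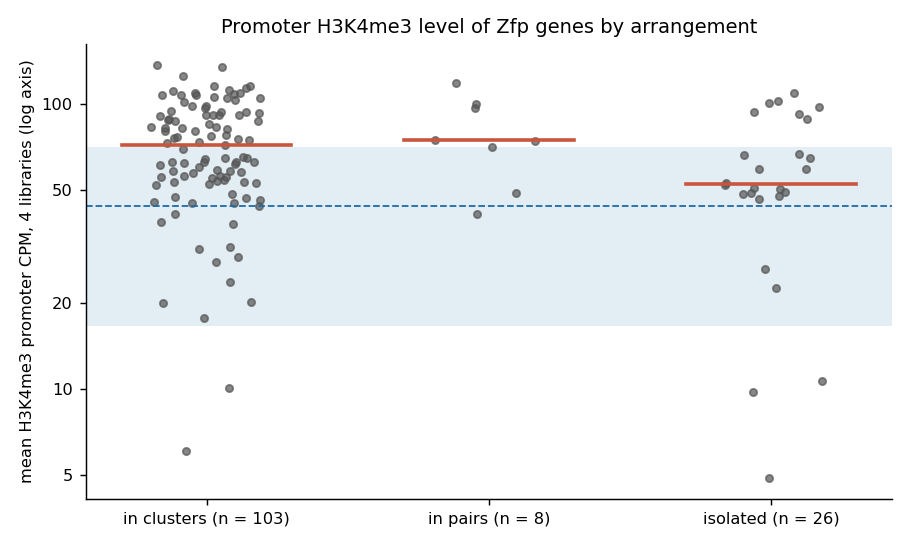
Mean H3K4me3 level of each Zfp promoter peak over the 4 libraries (CPM, log axis) for genes in clusters, in pairs and isolated, 1 point per gene, with the red line at the median. The dashed line and the shaded band are the median (44.1 CPM) and the middle 50% of all promoters (16.7 to 70.6 CPM), and most clustered promoters lie at or above the top of the band or in its upper part.

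The 5 promoters with the highest level lay on chromosomes 7 and 13. Zfp738, in the Zfp712 to Zfp273 row, had 133 and 124 CPM in KL and 137 and 156 CPM in KLG4m/m. Zfp84, the first gene of its row, had 141 and 128 CPM in KL and 138 and 134 CPM in KLG4m/m. Zfp446 had 117 and 127 CPM in KL and 126 and 132 CPM in KLG4m/m, Zfp619, of a pair, had 111 and 117 CPM in KL and 109.6 and 139.6 CPM in KLG4m/m and Zfp566 had 118 and 116 CPM in KL and 104 and 128 CPM in KLG4m/m. None of these 5 changed at the threshold. At the low end stood isolated genes of known tissue-restricted roles and a few clustered genes. Zfp536, a repressor of neuronal differentiation, had 5.18 and 3.17 CPM in KL and 4.64 and 6.50 CPM in KLG4m/m, and Zfp366, known as DC-SCRIPT of dendritic cells, had 10.6 and 11.5 CPM in KL and 8.41 and 8.67 CPM in KLG4m/m. Zfp114 had 7.19 and 7.20 CPM in KL and 3.77 and 6.19 CPM in KLG4m/m, Zfp819 had 11.5 and 8.64 CPM in KL and 11.3 and 8.98 CPM in KLG4m/m and Zfp941 had 8.92 and 9.22 CPM in KL and 10.7 and 13.9 CPM in KLG4m/m. At these levels a value rests on 11 to 45 reads per library, so changes of this size were hard to detect.

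The comparison of KLG4m/m with KL asked whether loss of Gpx4 went with a change of the mark at these genes. At an adjusted p under 0.05 over all 35486 peaks, 1 of 172 member peaks rose and 11 fell (0.581% and 6.40%), whereas 3.1% of all peaks rose and 5.52% fell. Among promoters, 1 of 137 rose and 10 fell (0.730% and 7.30%), against 2.75% and 8.68% of all gene promoters, so the share that fell was near the background and the share that rose was below it. With the reads of all peaks of a gene summed, 3 of 140 genes rose and 14 fell, against 5.38% and 9.63% of all genes. This split moved with the scaling: with each library centred on its median, 17 member genes rose and 8 fell by the same test. Of the member peaks 2 rose and 8 fell, beside 1228 and 1744 of all 35486 peaks. The counts over all genes with this scaling are not given here. The median log2 fold change of the 137 promoters was 0.02, with 0.00 over all promoters, and 116 of the 137 lay within 0.3 of 0 (84.7%, against 70.7% of all promoters). DESeq2 was stricter over the whole table, with 0.781% of all peaks called, against 8.62% by edgeR. DESeq2 called 1 of the 12 peaks, the promoter of Zfp580, and with either KLG4m/m library left out edgeR called no peak of the whole table.

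Clustered genes stayed closer together than isolated ones. Of 103 clustered promoters, 0 rose and 5 fell by edgeR (4.85%; 7 and 10 at an unadjusted p under 0.05), limma called 0 and 5 and DESeq2 0 and 1, and the median log2 fold change was 0.02 with a range from -0.81 to 0.31. Over all peaks limma called 8.13% and DESeq2 0.781%. The share of all peaks or genes at an unadjusted p is not given, so such counts here and below have no background beside them. Among 26 isolated promoters, 1 rose and 3 fell (15.4% called), the median was 0.04 and the range -0.52 to 0.47. By edgeR 11.4% of all gene promoters were called, and 14.3% of those under 50 CPM, so the isolated share was near these. Within 0.3 of 0 lay 94 of 103 clustered promoters (91.3%) and 15 of 26 isolated ones (57.7%). Of all promoters of 50 to 100 CPM 89.5% lay in this range, and of those under 50 CPM 54.7%. The median level was 72.1 CPM for clustered and 52.6 CPM for isolated promoters. With reads summed per gene, 5 of 103 clustered genes (4.85%) and 9 of 29 isolated genes (31.0%) were called, beside 3132 of all 20871 genes (15.01%). Isolated promoters were also weaker, with 11.5% under 20 CPM against 2.91% of clustered ones, and weaker peaks carry more counting error. Of all promoters of 50 to 100 CPM, 8.39% were called, and of the 80 members in this range 4 were. The difference between clustered and isolated genes was not tested.

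**Figure D3:**
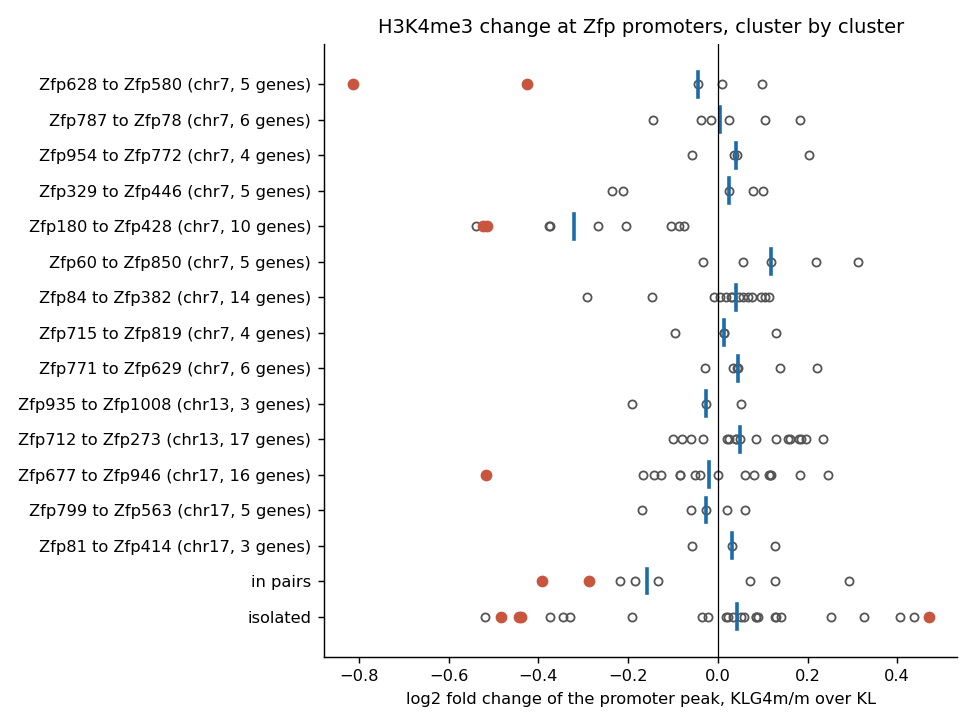
Log2 fold change of each Zfp promoter peak (KLG4m/m over KL, horizontal axis) for the 14 clusters in chromosome order, the genes in pairs and the isolated genes. Filled red points are peaks past the threshold and blue bars are medians; the 10 genes of Zfp180 to Zfp428 all lie left of 0, and the isolated genes spread from -0.52 to 0.47.

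The row Zfp180 to Zfp428 on chromosome 7 stood apart from the other rows, a choice made with its values known. Its 10 promoters had log2 fold changes below 0 in 10 of 10 genes, with a median of -0.32. In the other 13 rows the medians ran from -0.04 to 0.12. The summed level of the 10 promoters was 404 and 385 CPM in KL and 333 and 332 CPM in KLG4m/m, so the groups did not overlap. Leaving out each library in turn moved the median fold change to between -0.31 and -0.23. In 8 of the 10 genes both KLG4m/m libraries were below both KL libraries, where 29.3% of all gene promoters and 37.4% of those under 50 CPM show this, as do 17 of the 33 member promoters under 50 CPM. These are weak promoters, with a median of 30.3 CPM, and of all promoters under 50 CPM the median log2 fold change was -0.09.

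Zfp112 fell most clearly in this row, from 59.3 and 49.3 CPM in KL to 36.8 and 38.7 CPM in KLG4m/m (log2 fold change -0.52 ± 0.13 (SE), edgeR adjusted p = 0.0102). Zfp93 had 37.7 and 30.8 CPM in KL and 24.7 and 23.2 CPM in KLG4m/m and fell as well (log2 fold change -0.52 ± 0.16 (SE), edgeR adjusted p = 0.0375). The other members of the row did not pass the test. Zfp180, the first gene and the strongest, had 87.5 and 85.0 CPM in KL and 83.2 and 77.1 CPM in KLG4m/m. Zfp114 had the lowest fold change (log2 fold change -0.54 ± 0.33 (SE), edgeR adjusted p = 0.318) on 13 to 25 reads. Zfp109 had 34.5 and 28.5 CPM in KL and 19.4 and 29.4 CPM in KLG4m/m, with 1 KLG4m/m library inside the KL range. Zfp111 had 21.6 and 22.8 CPM in KL and 18.3 and 18.6 CPM in KLG4m/m and Zfp108 19.0 and 19.0 CPM in KL and 16.8 and 16.1 CPM in KLG4m/m, while Zfp428, the last gene, had 36.2 and 35.1 CPM in KL and 29.9 and 25.1 CPM in KLG4m/m (log2 fold change -0.37 ± 0.15 (SE), edgeR adjusted p = 0.112). The other listed peaks of this span all lie in the 208 kb between Zfp61 and Zfp428, with none between Zfp180 and Zfp61. These 21 peaks had a median log2 fold change of 0.21, with 3 that rose and 0 that fell. The 3 were peaks of Kcnn4, a potassium channel gene whose promoter peak rose from 38.3 and 38.0 CPM to 49.0 and 52.9 CPM (log2 fold change 0.42 ± 0.12 (SE), edgeR adjusted p = 0.034). Log2 fold changes below 0 were found in 10 of 10 Zfp promoters, 6 of the 21 other peaks and 3 of the 9 promoter peaks among these. Apart from Zfp428, the Zfp promoters and the other peaks lie in separate parts of the 426 kb.

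**Figure D4:**
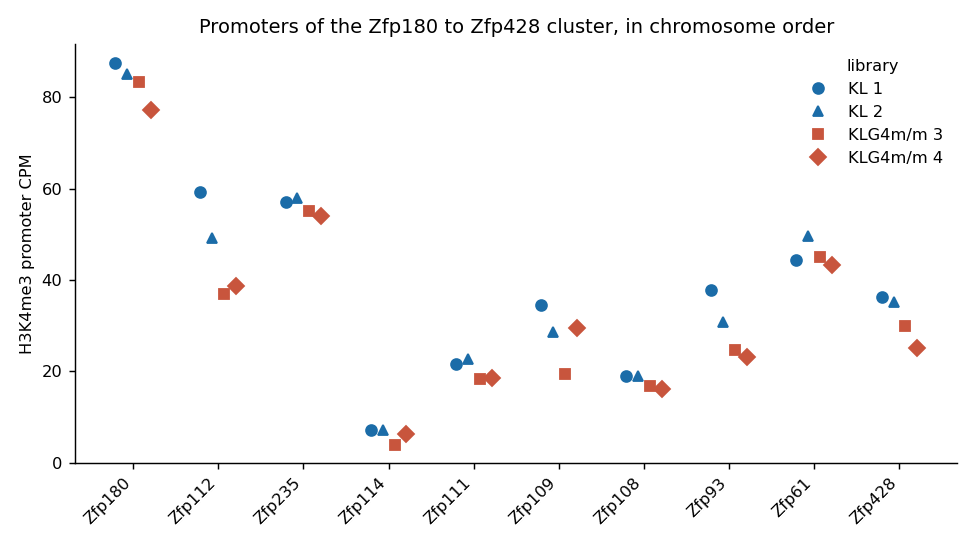
H3K4me3 promoter level (CPM, vertical axis from 0) of the 10 genes of the Zfp180 to Zfp428 row in chromosome order, 1 point per library, blue for KL and red for KLG4m/m. Zfp112 and Zfp93, which passed the threshold, and 6 further genes have both red points below both blue ones.

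The promoters that carried these calls are given as the 250 bases before the start site, read along the gene in GRCm38.p6, with copies of the shared letters in capitals. Zfp112, of the Zfp180 to Zfp428 row, held 2 copies on the opposite strand, and the promoters of Zfp580 (largest promoter fall), Zfp959 (clearest isolated fall) and Zfp296 (the rise) held 0.
Zfp112, chr7:24112070-24112319, plus strand: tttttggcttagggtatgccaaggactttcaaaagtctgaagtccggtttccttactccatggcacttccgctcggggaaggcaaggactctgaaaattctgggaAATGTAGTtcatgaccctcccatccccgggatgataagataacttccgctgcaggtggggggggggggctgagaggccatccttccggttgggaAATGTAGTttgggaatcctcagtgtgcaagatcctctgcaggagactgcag
Zfp580, chr7:5051282-5051531, plus strand: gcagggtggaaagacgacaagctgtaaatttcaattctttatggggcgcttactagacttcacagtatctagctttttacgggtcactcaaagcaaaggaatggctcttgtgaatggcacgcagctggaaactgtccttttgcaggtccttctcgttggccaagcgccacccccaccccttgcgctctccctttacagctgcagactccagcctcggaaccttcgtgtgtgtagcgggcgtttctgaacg
Zfp959, chr17:55891843-55892092, plus strand: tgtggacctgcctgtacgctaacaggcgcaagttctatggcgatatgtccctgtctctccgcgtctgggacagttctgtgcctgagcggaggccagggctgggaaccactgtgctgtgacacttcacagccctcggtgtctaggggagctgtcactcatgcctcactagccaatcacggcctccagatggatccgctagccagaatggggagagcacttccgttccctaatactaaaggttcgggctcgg
Zfp296, chr7:19577037-19577286, plus strand: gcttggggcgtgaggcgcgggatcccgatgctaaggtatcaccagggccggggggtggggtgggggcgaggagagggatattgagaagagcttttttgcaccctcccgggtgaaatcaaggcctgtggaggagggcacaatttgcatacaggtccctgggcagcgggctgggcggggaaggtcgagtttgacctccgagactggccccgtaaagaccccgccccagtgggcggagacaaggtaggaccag
Of 29 genes with the shared letters, 2 promoters fell (Zfp112 and Zfp72, 6.90%), and of 63 clustered genes without them 4 fell (6.35%), beside 8.68% of all promoters. Their median levels were 72.1 and 69.5 CPM.

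The short row Zfp628 to Zfp580 on chromosome 7 held the other fall of note. Zfp580 had the largest fall of any member promoter: 46.3 and 52.7 CPM in KL and 30.5 and 25.7 CPM in KLG4m/m, resting on 161, 183, 105 and 83 reads (log2 fold change -0.81 ± 0.14 (SE), edgeR adjusted p = 0.000473). Zfp628, at the other end of the row, had 69.9 and 70.6 CPM in KL and 45.2 and 59.8 CPM in KLG4m/m (log2 fold change -0.43 ± 0.12 (SE), edgeR adjusted p = 0.0223), but its groups came closer, and the fold change moved from -0.24 to -0.63 depending on which KLG4m/m library was left out. The 3 genes between them did not follow. Zfp524 had 74.5 and 81.8 CPM in KL and 75.1 and 76.5 CPM in KLG4m/m, Zfp865 had 57.5 and 54.4 CPM in KL and 53.4 and 66.9 CPM in KLG4m/m and Zfp784 had 81.1 and 84.7 CPM in KL and 84.7 and 82.1 CPM in KLG4m/m. The median of the row was therefore -0.04.

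The long row Zfp712 to Zfp273 on chromosome 13, with 17 genes over 753 kb, was strong and even. Its promoters had a median of 93.2 CPM, the lowest being Zfp455 at 53.2 CPM. With edgeR 0 of the 17 passed the threshold (4 higher and 0 lower at an unadjusted p under 0.05, and 0 by limma or DESeq2), and the median log2 fold change was 0.05. In 8 of 17 genes both KLG4m/m libraries were above both KL libraries, where 27.8% of all gene promoters show this, and 33.5% of those of 50 to 100 CPM and 49.95% of those of 100 CPM or more. Zfp712, the first gene, had 106 and 98.5 CPM in KL and 103 and 107 CPM in KLG4m/m, and Zfp273, the last, had 86.3 and 76.0 CPM in KL and 91.6 and 94.4 CPM in KLG4m/m. The largest fold change was that of Zfp953, with 86.0 and 86.4 CPM in KL and 102 and 101 CPM in KLG4m/m (log2 fold change 0.23 ± 0.09 (SE), edgeR adjusted p = 0.0938), and the lowest that of Zfp456 (log2 fold change -0.10 ± 0.09 (SE), edgeR adjusted p = 0.551). The 9 other listed peaks in the span had a median log2 fold change of 0.05.

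Zfp84 to Zfp382 on chromosome 7, 14 genes over 353 kb, was as even. Its median was 68.8 CPM and its median log2 fold change 0.04, with 0 of 14 past the threshold by edgeR, limma or DESeq2 (1 lower at an unadjusted p under 0.05). Zfp568, which silences a placental transcript of Igf2, had 57.5 and 69.1 CPM in KL and 68.2 and 67.2 CPM in KLG4m/m. Zfp30, known as a regulator of neutrophil recruitment to the airway, had 63.0 and 57.9 CPM in KL and 70.5 and 56.7 CPM in KLG4m/m, and Zfp420, an inhibitor of p53, had 41.1 and 39.5 CPM in KL and 35.1 and 48.6 CPM in KLG4m/m. The lowest fold change was at Zfp940, which had 55.2 and 51.8 CPM in KL and 46.7 and 40.6 CPM in KLG4m/m (log2 fold change -0.29 ± 0.12 (SE), edgeR adjusted p = 0.13), and the highest at Zfp74 (log2 fold change 0.11 ± 0.08 (SE), edgeR adjusted p = 0.425). The last gene, Zfp382, had 93.5 and 87.6 CPM in KL and 97.2 and 97.5 CPM in KLG4m/m.

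On chromosome 17 the row Zfp677 to Zfp946, 16 genes over 1039 kb, had a median of 55.5 CPM and a median log2 fold change of -0.02. In it Zfp820 fell, with 26.8 and 29.4 CPM in KL and 19.4 and 19.8 CPM in KLG4m/m (log2 fold change -0.52 ± 0.16 (SE), edgeR adjusted p = 0.0485), and was also the weakest promoter of the row. Its neighbours Zfp229, with 60.7 and 55.3 CPM in KL and 51.0 and 54.2 CPM in KLG4m/m, and Zfp995, with 53.8 and 53.6 CPM in KL and 49.6 and 51.7 CPM in KLG4m/m, did not pass the test. The largest fold change of the row was at Zfp758, with 68.8 and 73.7 CPM in KL and 77.4 and 92.0 CPM in KLG4m/m (log2 fold change 0.25 ± 0.10 (SE), edgeR adjusted p = 0.129). Zfp677, the first gene, had 64.7 and 59.9 CPM in KL and 68.2 and 67.2 CPM in KLG4m/m, and Zfp946, the last, had 53.5 and 54.7 CPM in KL and 58.9 and 55.4 CPM in KLG4m/m. The 5 genes of Zfp799 to Zfp563 (median 80.8 CPM) and the 3 of Zfp81 to Zfp414 (77.5 CPM) had medians of -0.03 and 0.03 and 0 calls. Their lowest fold changes were those of Zfp799 (log2 fold change -0.17 ± 0.12 (SE), edgeR adjusted p = 0.386) and Zfp81 (log2 fold change -0.06 ± 0.09 (SE), edgeR adjusted p = 0.724).

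In all, 11 of the 14 rows, with 72 genes, had 0 promoter calls by edgeR, limma or DESeq2 (6 higher and 3 lower at an edgeR unadjusted p under 0.05). These rows were grouped by having no edgeR call, so that 0 follows from the grouping. By edgeR 11.4% of all gene promoters were called, and 8.39% of those of 50 to 100 CPM. Zfp60 to Zfp850 had the highest median of any row, 0.12, led by Zfp60, which had 53.5 and 49.3 CPM in KL and 64.7 and 62.9 CPM in KLG4m/m (log2 fold change 0.31 ± 0.11 (SE), edgeR adjusted p = 0.0734). Zfp787 to Zfp78 had a median of 0.01 with its extremes at Zfp667 (0.18) and Zfp582 (-0.14). In Zfp954 to Zfp772, where each gene held the shared letters, the median was 0.04 and the largest fold change that of Zfp418, 0.20. Zfp329 to Zfp446 had a median of 0.02, and its Zfp110, which makes a partner of the p75 neurotrophin receptor, had 88.9 and 74.9 CPM in KL and 79.5 and 87.3 CPM in KLG4m/m. Zfp715 to Zfp819 and Zfp771 to Zfp629 had medians of 0.01 and 0.04, and Zfp935 to Zfp1008 of -0.03. Of the 14 rows, 9 had a median above 0 and 5 a median below it.

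Among isolated genes the changes went both ways. Zfp296, a gene of pluripotent cells, was the member whose promoter rose, with 46.9 and 52.1 CPM in KL and 67.6 and 69.7 CPM in KLG4m/m (log2 fold change 0.47 ± 0.11 (SE), edgeR adjusted p = 0.00718), and the groups did not overlap. Zfp959 fell from one of the highest levels of isolated genes, with 126 and 127 CPM in KL and 90.2 and 95.7 CPM in KLG4m/m (log2 fold change -0.44 ± 0.08 (SE), edgeR adjusted p = 0.00122). The difference was larger than the spread in either group, with an SD of 0.519 CPM in KL and 3.88 CPM in KLG4m/m (n = 2 each). Zfp976 had 58.7 and 62.8 CPM in KL and 42.6 and 44.3 CPM in KLG4m/m (log2 fold change -0.48 ± 0.11 (SE), edgeR adjusted p = 0.00855) and Zfp960 had 58.1 and 51.8 CPM in KL and 41.8 and 39.3 CPM in KLG4m/m (log2 fold change -0.44 ± 0.12 (SE), edgeR adjusted p = 0.0232), so both fell. Zfp945 has no promoter peak in the table, and its 1 peak, 8.97 kb before the start site, had 28 and 22 reads in KL and 9 and 7 reads in KLG4m/m (log2 fold change -1.57 ± 0.38 (SE), edgeR adjusted p = 0.0106).

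**Figure D5:**
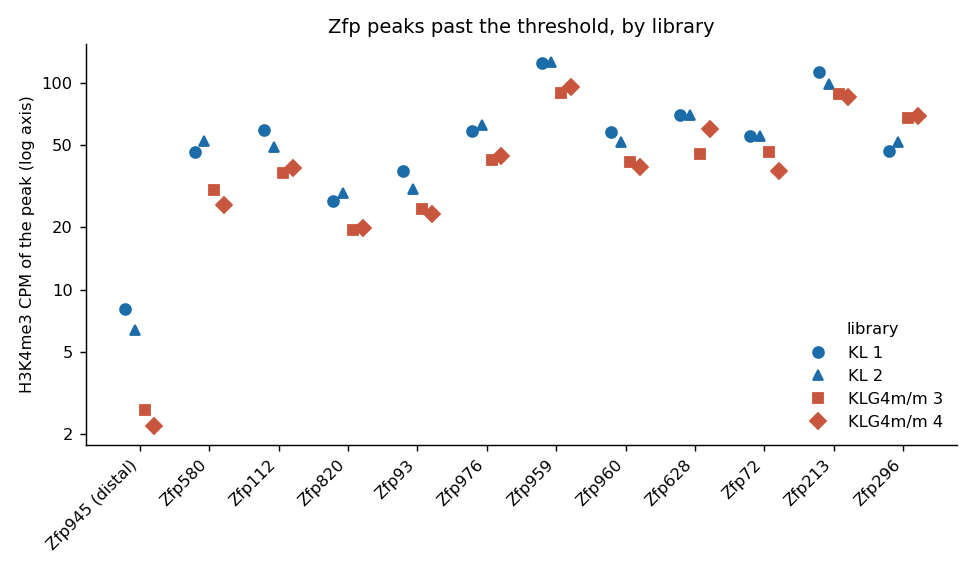
H3K4me3 level (CPM, log axis) of the 12 Zfp peaks past the threshold in each library, ordered from the lowest to the highest log2 fold change, blue for KL and red for KLG4m/m. In each peak the points of the groups do not overlap, with 11 lower in KLG4m/m and Zfp296 higher. The peaks were chosen by a test on these same libraries, so this separation follows largely from the choice.

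In pairs, 1 gene could pass the threshold while its neighbour did not. Zfp72 had 55.8 and 55.3 CPM in KL and 46.7 and 37.8 CPM in KLG4m/m (log2 fold change -0.39 ± 0.12 (SE), edgeR adjusted p = 0.046), whereas Zfp825 beside it had 89.2 and 107 CPM in KL and 97.4 and 109 CPM in KLG4m/m. Zfp213 had 114 and 98.8 CPM in KL and 88.5 and 85.8 CPM in KLG4m/m (log2 fold change -0.29 ± 0.09 (SE), edgeR adjusted p = 0.0484). Zfp13 beside it had 82.6 and 75.8 CPM in KL and 66.4 and 73.1 CPM in KLG4m/m. Zfp13 was thus also lower in both KLG4m/m libraries but did not pass (log2 fold change -0.18 ± 0.10 (SE), edgeR adjusted p = 0.253). With median centring neither Zfp72 nor Zfp213 passed (edgeR adjusted p = 0.0592 and 0.0682). Zfp606 of another pair, with 1 listed peak at 60.7 and 74.0 CPM in KL and 85.3 and 79.6 CPM in KLG4m/m, passed in the gene fit, adjusted over 20871 genes, and not in the peak fit (log2 fold change of summed reads 0.29 ± 0.10 (SE), edgeR adjusted p = 0.0369).

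The gene fit also called 4 isolated genes whose promoter peak did not pass. Of these, Zfp473, Zfp598 and Zfp131 have 1 listed peak, so the reads are the same in both fits, while the estimate of the spread and the adjustment are separate. Zfp473, which takes part in processing of histone messages, had 24.5 and 28.8 CPM in KL and 16.5 and 20.7 CPM in KLG4m/m (log2 fold change of summed reads -0.52 ± 0.18 (SE), edgeR adjusted p = 0.0315 for the gene). Zfp598, a ubiquitin ligase that senses collided ribosomes, had 46.9 and 66.2 CPM in KL and 40.9 and 48.3 CPM in KLG4m/m (log2 fold change of summed reads -0.35 ± 0.13 (SE), edgeR adjusted p = 0.0456), and here KLG4m/m replicate 4 lay inside the KL range. Zfp131 had 57.2 and 60.5 CPM in KL and 78.3 and 69.0 CPM in KLG4m/m (log2 fold change of summed reads 0.32 ± 0.11 (SE), edgeR adjusted p = 0.025), and Zfp366 fell over its 3 peaks together (log2 fold change of summed reads -0.52 ± 0.18 (SE), edgeR adjusted p = 0.0334). Of the well-known isolated genes, Zfp36, which makes the mRNA decay factor tristetraprolin, had 50.9 and 41.5 CPM in KL and 48.7 and 61.6 CPM in KLG4m/m (log2 fold change 0.25 ± 0.13 (SE), edgeR adjusted p = 0.234). Zfp57, which keeps methylation at imprinted genes, had 25.3 and 30.8 CPM in KL and 20.01 and 29.4 CPM in KLG4m/m (log2 fold change -0.19 ± 0.18 (SE), edgeR adjusted p = 0.538). Zfp346, a double-stranded RNA binding protein, had 56.1 and 57.6 CPM in KL and 60.9 and 63.5 CPM in KLG4m/m and Zfp143, the activator named above, 99.2 and 103 CPM in KL and 94.8 and 115 CPM in KLG4m/m. Its paralog Zfp523 had 58.4 and 48.7 CPM in KL and 52.8 and 52.6 CPM in KLG4m/m. None of these 5 passed the test.

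Beyond 1 kb from a start site the members had 30 peaks, with a median of 8.69 CPM, against 7.21 CPM for all such peaks. Of these, 0 rose and 1 fell, the peak of Zfp945 given above (1 and 5 at an edgeR unadjusted p under 0.05, 0 and 1 by limma, and 0 and 0 by DESeq2), beside 3.29% and 2.82% of all such peaks by edgeR. An intron peak of Zfp592 had 15 and 20 reads in KL and 33 and 28 reads in KLG4m/m (log2 fold change 0.85 ± 0.30 (SE), edgeR adjusted p = 0.0738). An intergenic peak assigned to Zfp229 had 25 and 23 reads against 10 and 12 (log2 fold change -1.06 ± 0.36 (SE), edgeR adjusted p = 0.0617). Neither passed the threshold.

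A list of 27 genes held co-repressor and heterochromatin genes of the KRAB zinc finger pathway, and the zinc finger genes Zfp445, Zfp809, Zfp90 and Zfp91. Of the 27, 23 had a listed peak (Setdb1, Cbx3, Daxx and Zfp91 had none). With reads summed per gene 0 rose and 4 fell by edgeR (4 and 5 at an unadjusted p under 0.05, 0 and 4 by limma, and 0 and 2 by DESeq2), beside 5.38% and 9.63% of all genes by edgeR, and the median log2 fold change was -0.01. Trim28, the common partner of KRAB domains, had 102.7 and 92.7 CPM in KL and 99.8 and 104.7 CPM in KLG4m/m (log2 fold change 0.06 ± 0.09 (SE), edgeR adjusted p = 0.695). Ehmt1, an H3K9 methyltransferase, fell from 52.6 and 78.6 CPM to 31.0 and 31.9 CPM (log2 fold change -1.06 ± 0.13 (SE), edgeR adjusted p = 4.1e-10). Smarcad1, a remodeler that keeps heterochromatin through replication, fell from 46.9 and 51.6 CPM to 32.2 and 27.9 CPM (log2 fold change -0.71 ± 0.14 (SE), edgeR adjusted p = 5.39e-05). Chaf1a, the large subunit of the histone chaperone CAF-1, had a log2 fold change of -0.58 ± 0.14 (SE), and Pphln1, of the HUSH complex, one of -0.45 ± 0.13 (SE), with edgeR adjusted p of 0.00105 and 0.00641. The zinc finger genes of the list on other chromosomes, Zfp445, Zfp809 and Zfp90, had log2 fold changes of 0.13, 0.09 and 0.13 and did not pass the test.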

How the data were processed

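The authors trimmed the reads with Trim Galore 0.6.10, mapped them with BWA 0.7.15, discarded mitochondrial, poorly mapped and duplicate reads (Picard 2.17.3), called peaks with MACS2 2.2.7.1 and assigned them to genes with HOMER 4.11.1. They deposited whole, unnormalized read counts per peak and library, with the distance of each peak to the nearest start site in bp. Their methods name the Ensembl 94 mouse genome, which belongs to the GRCm38 assembly. Of 138 member genes found in the RefSeq GRCm38.p6 gene table, however, 0 had the deposited start site and 3 had it within 1 kb, so the deposited coordinates were not taken as GRCm38. The deposited CPM and the authors' own comparison (fold changes, F statistics and p-values) were not used, and H3K27ac was not analysed here. A further allele that both groups carry is not reported here.

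Counts were compared with edgeR 4.0.16 (R 4.3.3; TMM, quasi-likelihood test, 2 libraries per group, no filter and no covariate), with Benjamini-Hochberg adjustment over all 35486 peaks or 20871 genes and a threshold of 0.05. The reads in peaks were 3244495 to 3463731 per library, so a promoter of 38.8 CPM (Zfp580) rests on 83 to 183 reads. Rows of genes were built from the deposited start sites. The test was first tried on simulated data with known changes. Members, lists and tests were chosen with earlier results of these data known. Named genes were the members past the threshold, the 5 highest and 5 lowest promoters, the first, last and most extreme genes of rows, and Zfp36, Zfp57, Zfp568, Zfp30, Zfp110 and Zfp346; others were named for their known function after their values were seen. The marker lists and the co-repressor list came from textbook knowledge. Alternatives were DESeq2 1.42.0, limma 3.58.1 on log2(CPM + 1), total reads, median centring, a mean of at least 10 CPM, unadjusted p, linking distances of 100 and 500 kb, the strongest promoter peak, and leaving out each library.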

Additional observations from a re-analysis of the deposited data

How the results depend on the processing

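DESeq2 called 1 of 172 member peaks, 2 of 140 genes, 1 clustered and 0 isolated promoters, in place of 12, 17, 5 and 4 by edgeR. Of all 35486 peaks it called 0.781%, against 8.62% by edgeR. At an unadjusted p under 0.05, 36 peaks and 35 genes passed, and the share of all peaks or genes at this threshold is not given here. Leaving out each library in turn gave 0 to 9 peaks, 0 to 9 genes, 0 to 3 clustered and 0 to 3 isolated promoters. Each 0 came without KLG4m/m replicate 3 or without KLG4m/m replicate 4, where edgeR called 0 peaks of the whole table. Without KL replicate 1, 5 peaks, 6 genes and 2 clustered promoters passed, and without KL replicate 2, 9 genes and 3 clustered promoters. A group then has 1 sample, assumed to vary like the other group. The median log2 fold change ran from -0.0123 to 0.0326 for clustered, from -0.0046 to 0.07 for isolated genes and from -0.31 to -0.23 for Zfp180 to Zfp428 (an alternative added after seeing the data). Limma, total reads, median centring, the 10 CPM filter, the other linking distances and the strongest promoter peak kept each count within 1.5 times its value. No direction of the 12 called peaks reversed under these settings. Neighbours were not counted from the reference annotation, since its start sites differ. No paired analysis was possible because the groups share no replicate number.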
